A study of Mus musculus with 7 samples.

Results

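The genes of Zfp281, the factor whose binding this study mapped, and of Suz12, Ezh2, Eed and Jarid2 were examined for peaks at their own loci. The 5 genes were chosen by name, and a peak was counted for a gene where it overlapped a window of the mm9 mouse genome that holds the gene and its flanks by at least 1 bp. The windows were 138500 to 138550 kb of chromosome 1 for Zfp281, 79785 to 79870 kb of chromosome 11 for Suz12, 47450 to 47570 kb of chromosome 6 for Ezh2, 97070 to 97160 kb of chromosome 7 for Eed and 44790 to 45050 kb of chromosome 13 for Jarid2. They held 28 of the 63934 peaks of the 5 deposited lists, of which 26 were Zfp281 peaks in embryonic stem cells (ESCs), 1 was a Suz12 peak in ESCs and 1 was a Zfp281 peak in extraembryonic endoderm stem cells (XENs). The data came from chromatin immunoprecipitation and sequencing (ChIP-seq) in feeder-free ESCs and XENs of strain 129S1, for which the labels name no treatment and no altered gene. ESCs are pluripotent cells and were grown with serum and leukemia inhibitory factor, and XENs, stem cells of the lineage that forms the yolk sac, were grown in medium conditioned by mouse embryonic fibroblasts. Zfp281 and Suz12 were immunoprecipitated in both cell types and H3K27me3 in XENs only, with 1 library each, and an input library of either cell type was not used here. With no replicates, no difference below has a test or a spread between libraries, and none of the lists contains expression values that could check the identity of the cells.

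Polycomb repressive complex 2 (PRC2) places the repressive mark H3K27me3 on histone H3 at developmental genes. Ezh2 is its catalytic subunit, Suz12 its scaffold, and Eed binds the mark already present and stimulates the enzyme. Jarid2 is an accessory subunit that helps to bring the complex to chromatin in ESCs. Zfp281 is a zinc finger factor of pluripotent cells that binds G-rich DNA. A peak near one of these genes is a place where the immunoprecipitated protein was found, and it does not by itself show that the gene responds.

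The annotated promoters are shown for the bait and for the genes with the 3 strongest Zfp281 peaks, since a G-rich element is what Zfp281 is known to bind. They run from 250 bases before to 50 bases after a RefSeq start site of build GRCm38.p6, 5′ to 3′ on the gene's strand, and capitals mark GGGAGGG or its reverse complement CCCTCCC. Peak positions are in mm9 and promoter positions in GRCm38.p6, so the distance from a peak to a start site was not analysed here. The positions are chr1:136624651-136624950 on the plus strand for Zfp281, chr11:79992856-79993155 on the plus strand for Suz12, chr6:47594981-47595280 on the minus strand for Ezh2 and chr13:44730524-44730823 on the plus strand for Jarid2.
Zfp281: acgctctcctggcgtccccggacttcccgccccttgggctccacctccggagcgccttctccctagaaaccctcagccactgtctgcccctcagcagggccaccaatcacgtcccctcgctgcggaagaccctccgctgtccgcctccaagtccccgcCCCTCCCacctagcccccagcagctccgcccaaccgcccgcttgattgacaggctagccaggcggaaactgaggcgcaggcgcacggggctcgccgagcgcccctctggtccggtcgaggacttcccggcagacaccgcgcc
Suz12: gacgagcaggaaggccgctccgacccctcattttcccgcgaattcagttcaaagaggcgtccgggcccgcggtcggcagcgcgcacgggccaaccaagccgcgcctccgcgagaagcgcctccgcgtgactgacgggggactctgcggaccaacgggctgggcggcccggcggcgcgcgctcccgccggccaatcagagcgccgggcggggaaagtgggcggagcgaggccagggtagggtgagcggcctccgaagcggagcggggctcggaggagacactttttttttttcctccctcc
Ezh2: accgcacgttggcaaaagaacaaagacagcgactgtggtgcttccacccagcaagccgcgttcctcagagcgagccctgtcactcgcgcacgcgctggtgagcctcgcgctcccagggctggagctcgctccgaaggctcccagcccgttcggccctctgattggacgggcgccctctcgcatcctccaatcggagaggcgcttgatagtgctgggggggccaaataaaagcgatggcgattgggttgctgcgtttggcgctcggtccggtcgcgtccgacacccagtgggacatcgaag
Jarid2: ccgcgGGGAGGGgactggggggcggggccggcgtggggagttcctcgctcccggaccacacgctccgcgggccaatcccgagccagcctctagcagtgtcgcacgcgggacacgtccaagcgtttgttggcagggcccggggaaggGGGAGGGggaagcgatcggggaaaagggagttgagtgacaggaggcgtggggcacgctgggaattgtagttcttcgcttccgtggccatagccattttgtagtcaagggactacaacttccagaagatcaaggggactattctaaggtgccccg
The element was present in 3 of the 6 promoters that the table lists for the 5 genes, once for Zfp281, once for Eed and at 2 places in the Jarid2 promoter shown. It was absent from the promoters of Suz12 and Ezh2 and from a second Jarid2 promoter. Of all 32851 promoters in the table, 22.0% held it on either strand. That share was not matched for G and C content, which was 54.7 to 71.0% in the 6 promoters against a median of 52.7%. The longer form GGGGAGGGG, which contains the shorter element, was found at both places of the Jarid2 promoter, in no other promoter of the 5 genes, and in 6.37% of all promoters. These letters were chosen after the sequences had been seen, and a match is not a measured site.

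All 5 windows held Zfp281 peaks in ESCs, 14 at Jarid2, 5 at Zfp281 itself, 3 at Suz12 and 2 each at Ezh2 and Eed. The strongest peak of a window ranked in the first 11.3% of the 52296 ESC Zfp281 peaks by the authors' −log10 q-value in every case. The Jarid2 and Suz12 windows each held a peak in the first 0.591% of the list, at ranks 304 and 309. Peaks were also frequent elsewhere. Of all tiles of the same length laid end to end over chromosomes 1 to 19 and X, 41.5% held an ESC Zfp281 peak at the 50 kb of the Zfp281 window, 52.1% at the 85 kb of Suz12, 58.9% at the 120 kb of Ezh2, 53.3% at the 90 kb of Eed and 73.5% at the 260 kb of Jarid2. Tiles include stretches without genes, while each window was placed on a gene, so these shares are a background for length only. A window with some peak is thus common over the genome, and its presence alone is not a result about these genes. A peak at least as high as the strongest of the window occurred in 1.02% of tiles for Suz12, 2.85% for Jarid2, 4.06% for Ezh2, 9.35% for Zfp281 and 12.1% for Eed.

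**Figure D1:**
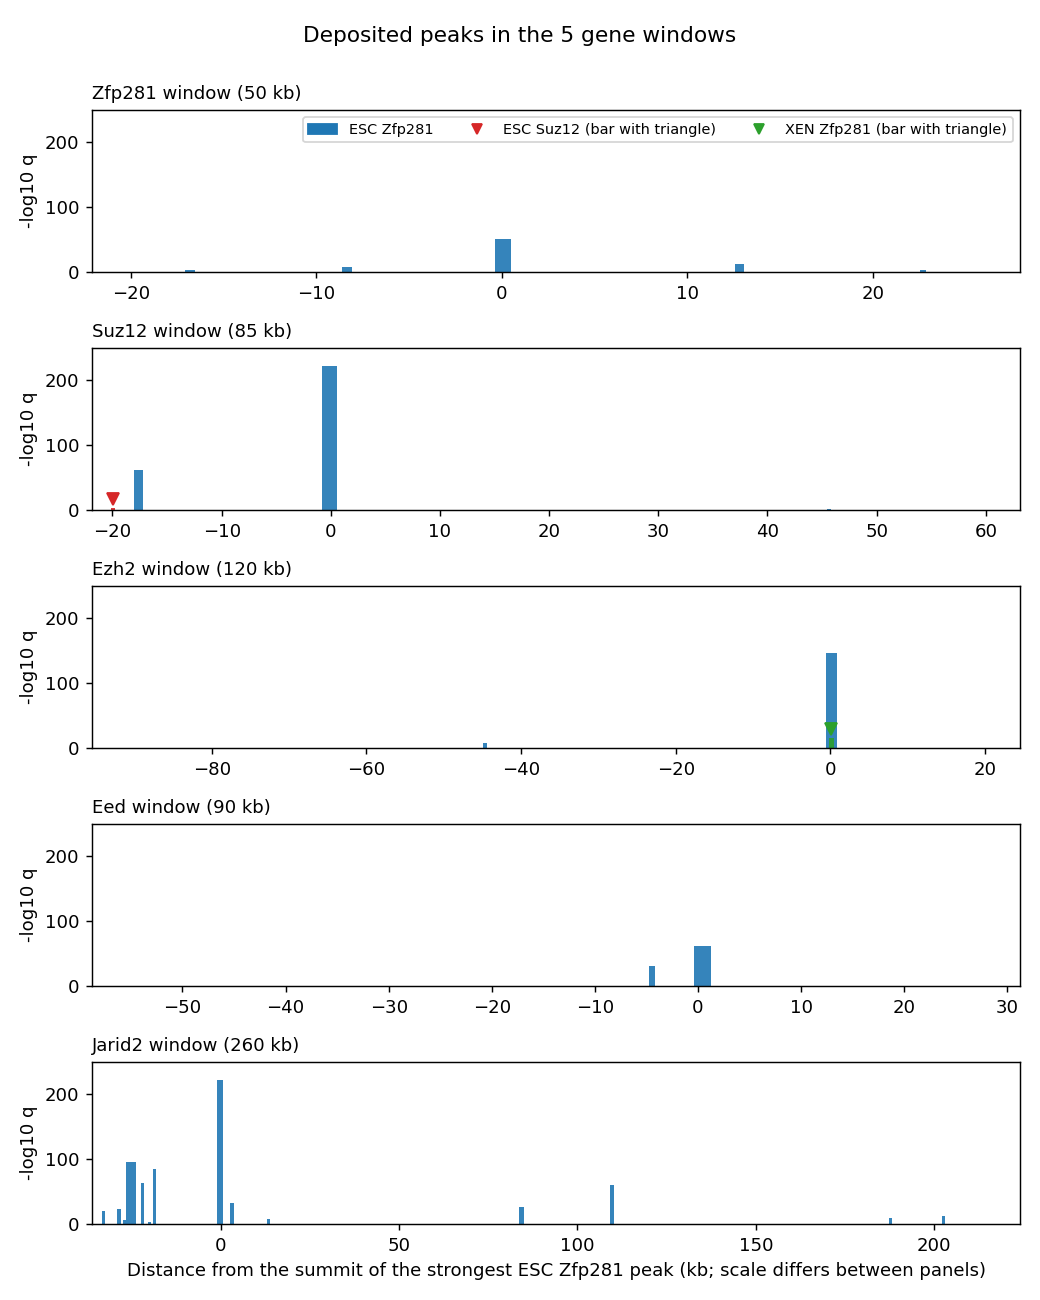
Peaks of the 5 windows by distance in kb from the summit of the strongest ESC Zfp281 peak, with the height of each bar giving the authors' −log10 q-value, ESC Zfp281 in blue, ESC Suz12 in red and XEN Zfp281 in green (the short bars of the last pair carry a triangle). The highest blue bar of a window reaches 221 at Suz12 and at Jarid2. At Eed the 2 blue bars stand at 61.8 and 30.7. The green bar lies inside the strongest Ezh2 peak.

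**Figure D2:**
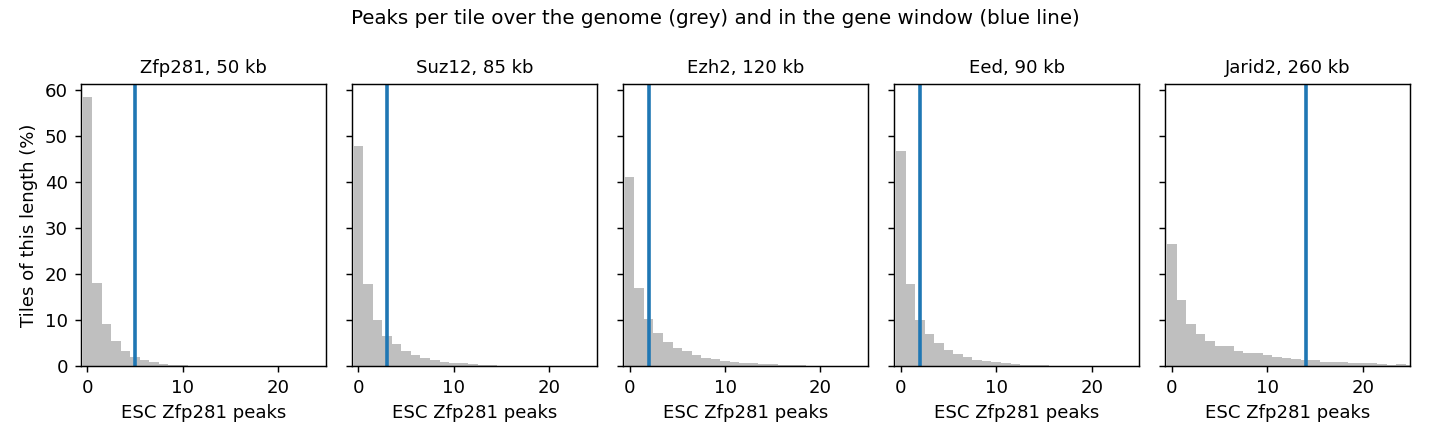
Share of tiles (vertical axis, %) by their number of ESC Zfp281 peaks (horizontal axis, shown up to 25) for tiles as long as each window, in grey, with the number in the gene's window as a blue line. The line lies in the tail for Zfp281 (5 peaks, 5.69% of tiles with at least as many) and within the body for Ezh2 (2 peaks, 42.0%).

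At its own gene, Zfp281 had 5 peaks in ESCs, and 5.69% of the 50 kb tiles held at least as many. The strongest ran from 138521691 to 138522540 on chromosome 1, was 850 bp wide and was enriched 10.7-fold over the expected level (−log10 q 50.6, rank 5893). The level behind it was 74 ChIP tags at the summit against 5.98 expected. Of the other 4, 1 lay above the list's median −log10 q of 10.5 and 3 lay below it. The peak from 138534615 to 138535138 was enriched 5.53-fold (−log10 q 12.5), and that from 138513477 to 138513975 was enriched 4.49-fold (−log10 q 8.30). The outermost peaks, from 138505024 to 138505520 and from 138544604 to 138544954, were enriched 3.26-fold and 3.18-fold, with −log10 q of 3.83 and 3.64, and ranked at 91.1% and 91.6% of the list counted from its top. The 5 peaks were spread over the window with 7715 to 12074 bp between neighbours, so they did not form a single broad site. No XEN Zfp281, ESC Suz12 or other peak overlapped the window, against 5.37% of 50 kb tiles with an XEN Zfp281 peak and 9.47% with an ESC Suz12 peak.

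The control level here is the tags that the authors' peak caller expected at a site without enrichment, computed from the deposited values. Whether an input library entered it is not given in the sources used here. This level was above the lowest level of the list at all 5 Zfp281 peaks. It was 1.47 to 1.98 times that lowest level, which was 3.01 tags. At the other 21 peaks of the windows it ranged from 1.00 to 2.31 times, and it exceeded the lowest level by more than 1% at 12 of them. The highest of all 26 was at the weakest Suz12 peak (2.31 times), and the strongest Ezh2 peak and 2 Jarid2 peaks stood at 1.65 times. Over all ESC Zfp281 peaks of chromosome 1, 93.3% exceeded it, with a median of 1.49 times, as did 94.2% on chromosome 8, which holds no window, against 43.1% on chromosome 6, 44.4% on chromosome 13, 52.2% on chromosome 7 and 56.4% on chromosome 11. In ChIP tags, the intervals of the strongest Zfp281 peak (74 tags, 95% Poisson interval 58.1 to 92.9) and of the strongest Eed peak (67 tags, 51.9 to 85.1) overlapped. In fold the Zfp281 peak stood at 10.7 and the Eed peak at 16.9, and the part of the control level in this order was not tested.

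Ezh2, the catalytic subunit, was the gene with a Zfp281 peak in both cell types. Its strongest ESC peak ran from 47544929 to 47546299 on chromosome 6, was 1371 bp wide and was enriched 23.9-fold (−log10 q 146, rank 952), with 142 tags against 4.98 expected. In XENs the peak ran from 47545349 to 47545964, was 616 bp wide and was enriched 7.09-fold (−log10 q 16.1), ranking 1130 of the 3449 XEN peaks. All 616 bp lay inside the ESC peak, and the summits were 127 bp apart. The XEN summit held 41 tags (95% Poisson interval 29.4 to 55.6, before scaling), which the authors' values scale to 33.4 against 3.86 expected. Folds of different libraries were scaled separately, so 23.9 and 7.09 stand side by side here without a ratio. Of 120 kb tiles, 11.1% held an XEN Zfp281 peak. The other ESC Zfp281 peak of the window, from 47500547 to 47501029, was 44.6 kb away by its summit and enriched 4.98-fold (−log10 q 7.77), and it had no XEN peak. At least 2 ESC Zfp281 peaks occurred in 42.0% of tiles, and the window held no Suz12 peak, against 19.3% of tiles with 1. The nearest ESC Suz12 peak to the shared site was 56516 bp away.

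At Suz12, the scaffold subunit, the dominant ESC Zfp281 peak ran from 79806040 to 79807446 on chromosome 11, over 1407 bp. It was enriched 40.4-fold (−log10 q 221, rank 309), with 172 tags at the summit (147 to 200 by the Poisson interval) against 3.28 expected. A peak from 79788821 to 79789660, 17723 bp away by its summit, was enriched 16.0-fold (−log10 q 61.3). The peak from 79852336 to 79852643 was among the weakest of the list, at 2.38-fold and −log10 q 2.02. In all, 24.2% of the 85 kb tiles held 3 or more ESC Zfp281 peaks. The single ESC Suz12 peak of the 5 windows lay here, from 79786741 to 79787090. It was 350 bp wide, the narrowest width in the list, was enriched 3.61-fold (−log10 q 3.71) and ranked 7066 of 8184, with 16.5 scaled tags against 3.85 expected. It lay 1740 bp inside the window's edge, 1730 bp from the nearer Zfp281 peak and 18949 bp from the dominant one. An ESC Suz12 peak was present in 14.7% of tiles of this length, so a weak one at the edge of 1 of the 5 windows is not a result about the gene. No XEN Zfp281 peak overlapped the window (8.39% of tiles had 1), and the nearest lay 87089 bp from the dominant ESC peak.

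Eed, the subunit that recognises the mark, had 2 neighbouring ESC Zfp281 peaks and no peak of any other list. The stronger ran from 97128355 to 97130026 on chromosome 7, was 1672 bp wide and was enriched 16.9-fold (−log10 q 61.8, rank 4528). The other, 4467 bp away by its summit, ran from 97124002 to 97124573 and was enriched 10.2-fold (−log10 q 30.7, rank 10371). Both thus stood above the list's median −log10 q of 10.5, and 35.4% of 90 kb tiles held 2 or more peaks. An ESC Suz12 peak was present in 15.4% and an XEN Zfp281 peak in 8.77% of such tiles. The nearest XEN Zfp281 peak was 1701700 bp from the stronger Eed peak, the farthest of any peak described here.

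Jarid2, the accessory subunit, had 14 ESC Zfp281 peaks covering 14160 bp of its 260 kb window, a number reached by 11.7% of tiles. The strongest ran from 44824893 to 44826778 on chromosome 13, over 1886 bp, and was enriched 41.1-fold (−log10 q 221, rank 304), with 171 tags (146 to 199) against 3.19 expected. The next by −log10 q, from 44799453 to 44802322, was the widest of the 26 peaks at 2870 bp and was enriched 21.04-fold (−log10 q 95.8). The peak from 44807019 to 44807841 was enriched 16.6-fold (−log10 q 85.5). The other 11 ranged from 3.01 to 16.7-fold and from 2.77 to 62.8 in −log10 q. The peaks were not evenly spread. The first 7 by position lay within 15050 bp at one end of the window, with gaps of 376 to 3562 bp, and the strongest peak followed 17051 bp further on. By contrast, the last 4 were spread over 119 kb. In the RefSeq table of GRCm38.p6 the next protein-coding gene after Jarid2 is Dtnbp1, so peaks near the far end of the window may belong to either gene's surroundings. No Suz12 peak lay in the window, although 34.4% of 260 kb tiles held 1 in ESCs, and no XEN Zfp281 peak did, against 20.2% of tiles. The nearest ESC Suz12 peak to the strongest Jarid2 peak was 346942 bp away and the nearest XEN Zfp281 peak 389568 bp away.

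Among themselves the 26 ESC Zfp281 peaks covered nearly the whole list in rank, from 0.581% to 99.1% counted from its top. Their median −log10 q was 25.2 and their median fold 9.10, against 10.5 and 5.48 in the whole list. By rank, 17 of the 26 were in the stronger 50% of the list (65.4%, 95% Wilson interval 46.2 to 80.6%), and 9 were in its first 10% (34.6%, 19.4 to 53.8%). These 9 were 5 peaks at Jarid2, 2 at Suz12 and 1 each at Ezh2 and Eed. Such intervals describe counting alone, and peaks of 1 locus are not independent of each other. Of the 26 peaks, 14 lay at Jarid2. Each window was placed on a gene, while the list was not limited to peaks near genes, so these shares are not particular to the 5 genes. The median width of the 26 peaks was 723 bp, against 594 bp in the list. At the strongest peak of each window the Poisson intervals of Suz12, Jarid2 and Ezh2 (120 to 167 tags) overlapped one another, and all 3 lay above those of Zfp281 and Eed. These intervals too describe counting alone, in 1 library and at the peak picked as the strongest of each window. They leave out the expected level, which ran from 3.01 tags at Eed to 5.98 at Zfp281, and the order was not tested.

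**Figure D3:**
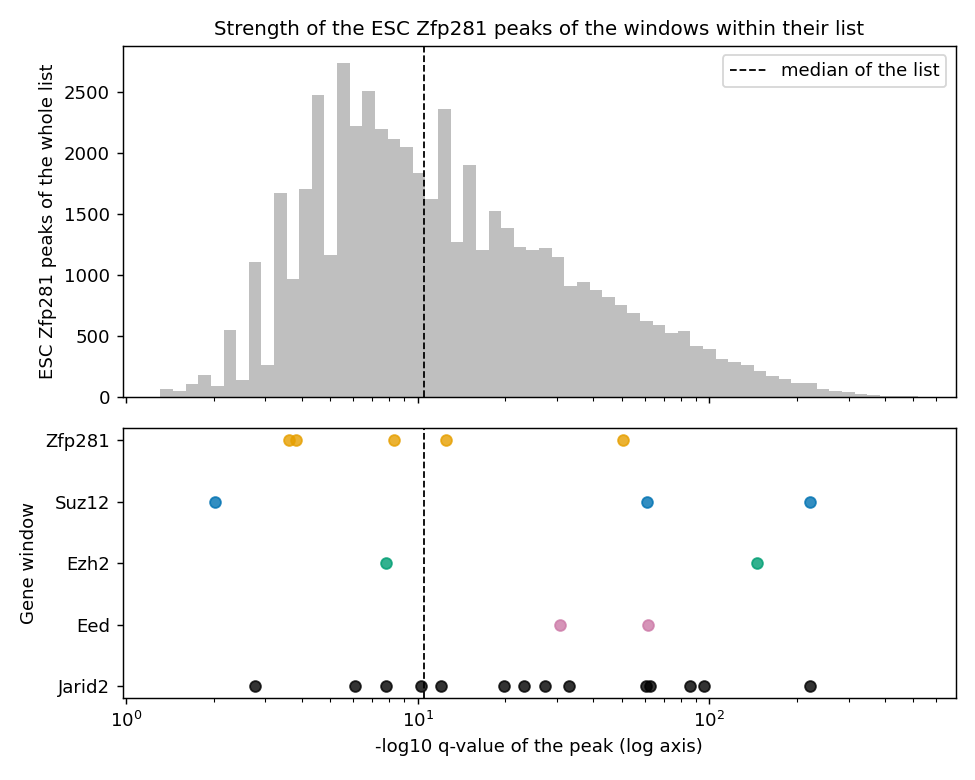
Number of ESC Zfp281 peaks in the whole list by −log10 q-value on a log axis (grey, upper panel) and the 26 peaks of the windows, 1 point each, by gene (lower panel), with the median of the list as a dashed line. Peaks of the windows lie on both sides of the median of 10.5, with 17 of 26 in the stronger 50%.

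**Figure D4:**
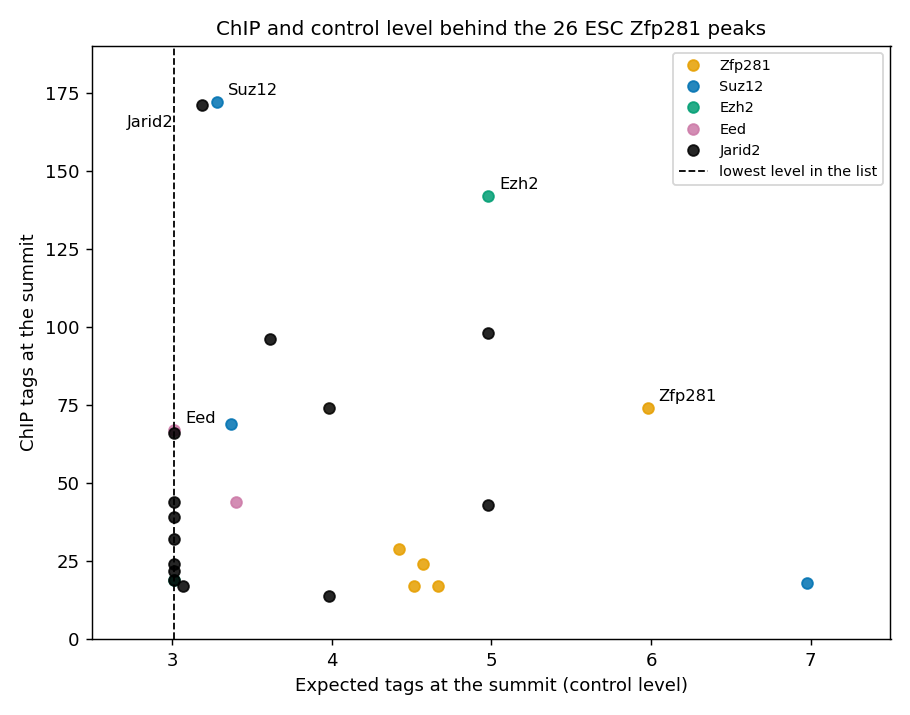
ChIP tags (vertical axis) against the expected tags (horizontal axis), both computed from the deposited values, at the summit of each of the 26 ESC Zfp281 peaks, coloured by gene. The strongest peak of each window is named, and the lowest expected level of the list is a dashed line. The strongest Suz12 and Jarid2 peaks reach 172 and 171 tags near that line, the 5 Zfp281 peaks lie to its right, and the weakest Suz12 peak lies farthest right at 6.97 expected tags.

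Across cell types, a single one of the 26 peaks of ESCs was met by a Zfp281 peak of XENs, or 3.85% (95% Wilson interval 0.682 to 18.9%), against 5.10% in the whole ESC list. The interval includes the share of the whole list. The peak kept was not the strongest. Of the 309 ESC peaks at least as high in −log10 q as that of Suz12, 157 overlapped an XEN peak (50.8%, 45.3 to 56.3%), and the Suz12 and Jarid2 peaks were among those that did not. Of the 952 peaks at least as high as that of Ezh2, 45.1% did (41.9 to 48.2%). For Eed the share was 26.5% and for Zfp281 23.6%. The XEN list is shorter, with 3449 peaks against 52296 in the ESC list. Near the lowest expected level, the lowest fold was 4.18 in the XEN list and 2.74 in the ESC list. The part of list length and threshold in these shares was not tested. An absent peak is not a level of 0. The XEN level at the 25 ESC peaks with no XEN peak is not in the lists, so how far it lay below the authors' threshold was not measured.

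With Suz12, none of the 26 ESC Zfp281 peaks overlapped. A count of 0 of 26 allows a share of up to 11.5% when the limit is set at 3 counts, and the 95% Wilson interval reaches 12.9%. The whole list had 7.77%. A lower share than in the list was thus not detectable with this number of peaks. In XENs no Suz12 or H3K27me3 peak lay in any window or anywhere on these 5 chromosomes, and these lists held 4 and 1 peaks in all. Distances from the 26 ESC Zfp281 peaks to the nearest ESC Suz12 peak ran from 1730 to 380235 bp. For the strongest peak of each window the distance was 18949 bp at Suz12, 56516 bp at Ezh2, 163122 bp at Zfp281, 319620 bp at Eed and 346942 bp at Jarid2. Over the 52266 ESC Zfp281 peaks on a chromosome with a Suz12 peak, the median was 85868 bp and the quartiles 22500 and 220240 bp. The Suz12 peak thus fell below the lower quartile, the Eed and Jarid2 peaks above the upper one and those of Ezh2 and Zfp281 between them. The place of the Suz12 peak rests on the single weak ESC Suz12 peak of its window. The next ESC Suz12 peaks lay 243821 and 258619 bp outside that window, which is above the upper quartile.

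The edges of the windows bear on these counts. At Zfp281 the last ESC peak inside ended 5046 bp before the edge, and the next outside, from 138558137 to 138559358, lay 8136 bp beyond it, was enriched 9.89-fold and overlapped an XEN Zfp281 peak with a −log10 q of 8.96. On the other side an XEN Zfp281 peak of 14.4-fold, ranking 82 in its list, ended 32805 bp outside. In the RefSeq table the protein-coding genes next to Zfp281 are Kif14 and Nr5a2. At Eed the nearest ESC Zfp281 peak outside lay 5581 bp beyond the edge (14.8-fold), and at Suz12 8667 bp beyond it (3.45-fold). At Jarid2 the first peak inside began 2791 bp from the edge (8.22-fold) and the nearest outside ended 13144 bp from it (6.11-fold). At Ezh2 the nearest outside ended 44639 bp away (13.2-fold). Outside the windows, the nearest ESC Suz12 peaks lay 32815 bp from the Ezh2 window and 123720 bp from that of Jarid2. For the Zfp281 window the distance was 135662 bp, for that of Suz12 243821 bp and for that of Eed 289646 bp.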

How the data were processed

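The 5 peak lists, 1 per immunoprecipitated library with nothing pooled, have the 10 columns of the narrowPeak layout. Reads were aligned to mm9, and FastQC 0.10.1, Bowtie2 2.3.4 and SAMtools 0.1.19 were named, per the submitters' processing notes. The peak caller and its control are not given in the sources used here. The deposited fold is the pileup over the expected level, the deposited −log10 values are those of the p-value and q-value, and the deposited score is 10 times the −log10 q-value without decimals. These values describe peaks within a list only.

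The genes, windows, lists and comparisons were chosen with earlier results of these data known. Peaks counted as overlapping a window or another peak from 1 shared bp. Tiles ran from the lowest to the highest position of any list on a chromosome. Tags were computed from fold and −log10 p-value, with 1 added to pileup and expected level and a Poisson tail. A whole number of tags gave the −log10 p-value within 0.002 for 99.8% of ESC Zfp281 peaks and 100% of ESC Suz12 and XEN Zfp281 peaks, with scales of 1, 0.590 and 0.815. The procedure was tested on simulated data. Every peak was named where a window held 6 or fewer of a list, otherwise the 3 highest by −log10 q-value. Other PRC2 and PRC1 genes were not analysed here, because no mm9 annotation was used. Python 3.11.15, scipy 1.17.1 and statsmodels 0.14.6 were used. Promoter sequences are RefSeq's, and all 5 genes were matched by symbol.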

Additional observations from a re-analysis of the deposited data

How the results depend on the processing

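No paired analysis was possible because there was 1 library in every group. Of 45 alternatives, 38 left their value within 1.5 times the count or inside the interval of the share or median, and 7 moved it. Keeping the higher-scoring 50% of the list left 17 ESC Zfp281 peaks in the windows in place of 26, still in all 5 windows, and 0 ESC Suz12 peaks, in 0 windows. Windows shortened by 10 kb at each end also held 0 ESC Suz12 peaks, in 0 windows, since the single peak lay near an edge. Windows lengthened by 10 kb at each end held 2 XEN Zfp281 peaks, in 2 windows, because the peak beyond the Zfp281 window was then included. No alternative gave an ESC Suz12 peak that overlapped an ESC Zfp281 peak of the windows. None could have, since the closest such pair lay 1730 bp apart. Outside the windows the nearest ESC Suz12 peak lay 32815 bp away, beyond the 10 kb added. The alternatives for this overlap were thus fixed at 0 and tell nothing about it. The alternatives for Suz12 and H3K27me3 in XENs were likewise fixed at 0, since these lists held no peak on the chromosomes of the windows. The median rank of the 26 peaks, at 24.2% of the list from its top, was 19.1 to 37.3% under the alternatives. Counts of 0 to 2 limit every statement on Suz12 and XENs, and the depth of the libraries is known only through the peaks.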

Other observations

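The control level at the shared Ezh2 site was above the lowest level in both lists, at 1.65 times that level in ESCs and 1.63 times in XENs. The promoters of the 5 genes held 54.7 to 71.0% G and C, against a median of 52.7% over all promoters of the table.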
